A study of Homo sapiens with 6 samples.

Results

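The aminoacyl-tRNA synthetases, the enzymes that load each transfer RNA with its amino acid, were followed by RNA sequencing in THP-1, a line derived from a human monocytic leukaemia and often used as a macrophage model. Their genes were taken by symbol from the deposited table: 36 of the 28847 genes listed, of which 20 encode enzymes of the cytosol and 16, with names ending in ARS2, enzymes of the mitochondrion. GARS and KARS, placed here with the cytosolic enzymes, each encode both a cytosolic and a mitochondrial form. All 36 passed the filter on low values, and the least covered, SARS2, had 59 to 86 reads per library. One group was 3 THP-1 libraries given recombinant human RBP4, the plasma carrier of retinol, and the other group was 3 libraries of THP-1 alone, the control. The series presents the cells as unpolarized (M0) macrophages, and gives neither a dose nor a time nor says whether the libraries of a group came from separate cultures, so the p-values measure a spread between libraries that may be technical.

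Each synthetase recognizes its amino acid and its transfer RNAs and joins them in a reaction driven by ATP. The enzymes fall into structural classes I and II, which differ in the fold of the catalytic domain. In the cytosol of animal cells several of them sit together, with scaffold proteins, in the multisynthetase complex. Mitochondria translate the respiratory chain subunits of their own genome with a separate set of enzymes, which are encoded in the nucleus and imported. When charged transfer RNA runs short, the kinase GCN2 (EIF2AK4) phosphorylates the initiation factor eIF2alpha, and the same step is used by other stress kinases. This raises translation of the transcription factor ATF4, which is known to bind C/EBP-ATF response elements in many amino acid and cytosolic synthetase genes.

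Depth lay between 15994483 and 16420517 recovered reads in the RBP4 libraries and between 15202000 and 16149118 in the control libraries. Of 12 monocyte and macrophage markers 11 were analysed, and 2 (SPI1 and CD33) reached 10 CPM (reads relative to the library total) in all 6 libraries. The summed level of the list lay between 118 and 127 CPM in the RBP4 and between 107 and 115 CPM in the control libraries. CD14, the monocyte co-receptor for lipopolysaccharide, was at 0 in all 3 RBP4 libraries and averaged 1.39 normalized reads in the control libraries. All 12 erythroid markers reached 10 CPM in all 6 libraries, with a sum between 2024 and 2102 CPM in the RBP4 and between 2282 and 2295 CPM in the control libraries. The markers thus do not bear out the labelled cell type, and the groups are called by their labels. Transcripts of the mitochondrial genome held between 7.58 and 7.69% of the reads in the RBP4 libraries and between 5.90 and 6.10% in the control libraries. The part of these differences in the results on the synthetases was not tested.

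Transcripts of the cytosolic synthetases rose more often than they fell in the RBP4 libraries, led by the enzymes for tryptophan (WARS, 1.63-fold) and alanine (AARS, 1.60-fold). Transcripts of the mitochondrial synthetases fell more often than they rose, with IARS2, EARS2 and LARS2 furthest down among those that passed. Of the 20 cytosolic genes, 12 rose (60.0%), 5 fell and 3 missed the adjusted p of 0.05, and their median log2 fold change was 0.14. Of the 16 mitochondrial genes, 2 rose (12.5%), 7 fell (43.8%) and 7 missed it, and their median was -0.17. Among all 15676 genes tested with limma, 50.6% passed, 24.5% upward and 26.1% downward, around a median of -0.0021. Of the 36 synthetases together, 14 rose and 12 fell. Across the whole table direction moved with abundance, and the part of this in the results was not tested: protein-coding genes averaging within the range of the cytosolic synthetases rose in 14.7% and fell in 60.0% of cases (median -0.13), and those within the range of the mitochondrial synthetases rose in 25.5% and fell in 32.6% (median -0.029). An absolute log2 fold change of 0.5 was exceeded by 2 of the 20 cytosolic genes (WARS and AARS), beside 5.25% of the protein-coding genes in their range, and by 0 of the 16 mitochondrial genes, beside 9.63% of those in theirs, while the share over all genes tested was 20.7%.

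All 3 RBP4 libraries lay above all 3 control libraries in 12 cytosolic and 2 mitochondrial genes, beside 27.3% of all genes tested. They lay below in 6 cytosolic and 9 mitochondrial genes, beside 28.9%. With the libraries scaled to equal totals, which moves the median of all genes by 0.068, 14 cytosolic genes rose and 5 fell, and 2 mitochondrial genes rose and 4 fell. Of the 15676 genes tested, 7812 passed under that scaling, and 61.7% of these calls were upward, in place of 48.4%. The number of lowered mitochondrial genes thus depends on the scaling. The values are from bulk extracts, in which fewer cells of a kind and less RNA per cell cannot be told apart.

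**Figure D1:**
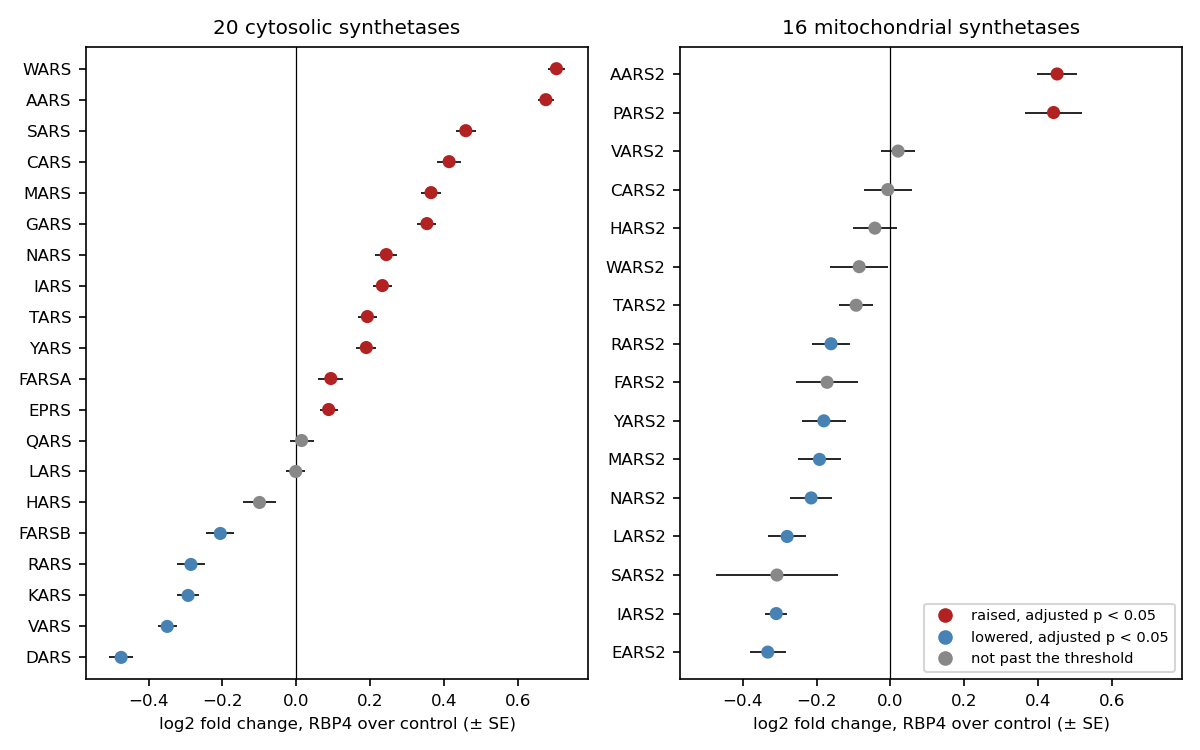
Log2 fold change, RBP4 over control, of each cytosolic (left) and mitochondrial (right) synthetase, with its standard error from limma (n = 3 libraries per group). Red points rose, blue points fell and grey points did not pass an adjusted p of 0.05: 12 of 20 cytosolic points are red and 7 of 16 mitochondrial points are blue.

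WARS (ENSG00000140105, chromosome 14, 100333788 to 100376805 on the minus strand), which charges tryptophan and is also known as a gene that interferon gamma induces, had 15072, 15074 and 14894 normalized reads in the RBP4 libraries, against 9283, 9152 and 9195 in the control libraries. The groups were far apart, and the libraries within each lay close together (log2 fold change 0.70, SE 0.023, adjusted p = 5.5e-38). AARS (ENSG00000090861, chromosome 16, 70252295 to 70289543 on the minus strand), which charges alanine, had 19686, 19788 and 19422 normalized reads in the RBP4 libraries, against 12516, 12145 and 12196 in the control libraries. It was the most abundant synthetase per length in the mean of each group and rose 1.60-fold (log2 fold change 0.68, SE 0.022, adjusted p = 3.3e-38). SARS, which charges serine and also supplies the seryl-tRNA from which selenocysteine is made, had 7842, 7947 and 8259 normalized reads in the RBP4 libraries, against 5708, 5799 and 5981 in the control libraries (log2 fold change 0.46, SE 0.027, adjusted p = 1.6e-23). CARS, the cysteine enzyme, had 3699, 3731 and 3696 normalized reads in the RBP4 libraries, against 2786, 2772 and 2791 in the control libraries (1.33-fold, adjusted p = 4.0e-18). In each of these genes the lowest RBP4 library lay above the highest control library.

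MARS charges methionine for initiation and elongation and had 7432, 7578 and 7579 normalized reads in the RBP4 libraries, against 5989, 5693 and 5857 in the control libraries (1.29-fold, adjusted p = 7.1e-19). The 355 exonic bases that it shares with DDIT3 on the opposite strand are 5.05% of its exons, and the library kit does not mark the strand. DDIT3, a stress-induced transcription factor gene, averaged 1918 normalized reads in the RBP4 and 396 in the control libraries. It was 1522 normalized reads higher in the RBP4 than in the control libraries and MARS 1684, and how much of the MARS difference comes from reads of DDIT3 was not tested. GARS, the glycine enzyme of both compartments, had 8985, 9140.2 and 9058 normalized reads in the RBP4 libraries, against 6964, 7162 and 7141 in the control libraries (1.28-fold, adjusted p = 2.1e-19). The remaining raised genes moved less. NARS (asparagine) rose 1.18-fold, IARS (isoleucine) 1.17-fold, TARS (threonine) 1.14-fold and YARS (tyrosine) 1.14-fold, with adjusted p of 1.2e-08 or less. EPRS, a fused enzyme for glutamate and proline, averaged 11925 ± 83.8 normalized reads in the RBP4 and 11223 ± 357 in the control libraries (1.06-fold, adjusted p = 0.00173). FARSA, the alpha subunit of the phenylalanine enzyme, averaged 3263 ± 98.3 normalized reads in the RBP4 and 3058 ± 101 in the control libraries (1.07-fold, adjusted p = 0.0156), and this call was lost without RBP4 library 2 (adjusted p = 0.123), control library 2 (0.0573) or control library 3 (0.0846). Over its alternatives the adjusted p of FARSA ranged from 4.5e-05 to 0.123.

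**Figure D2:**
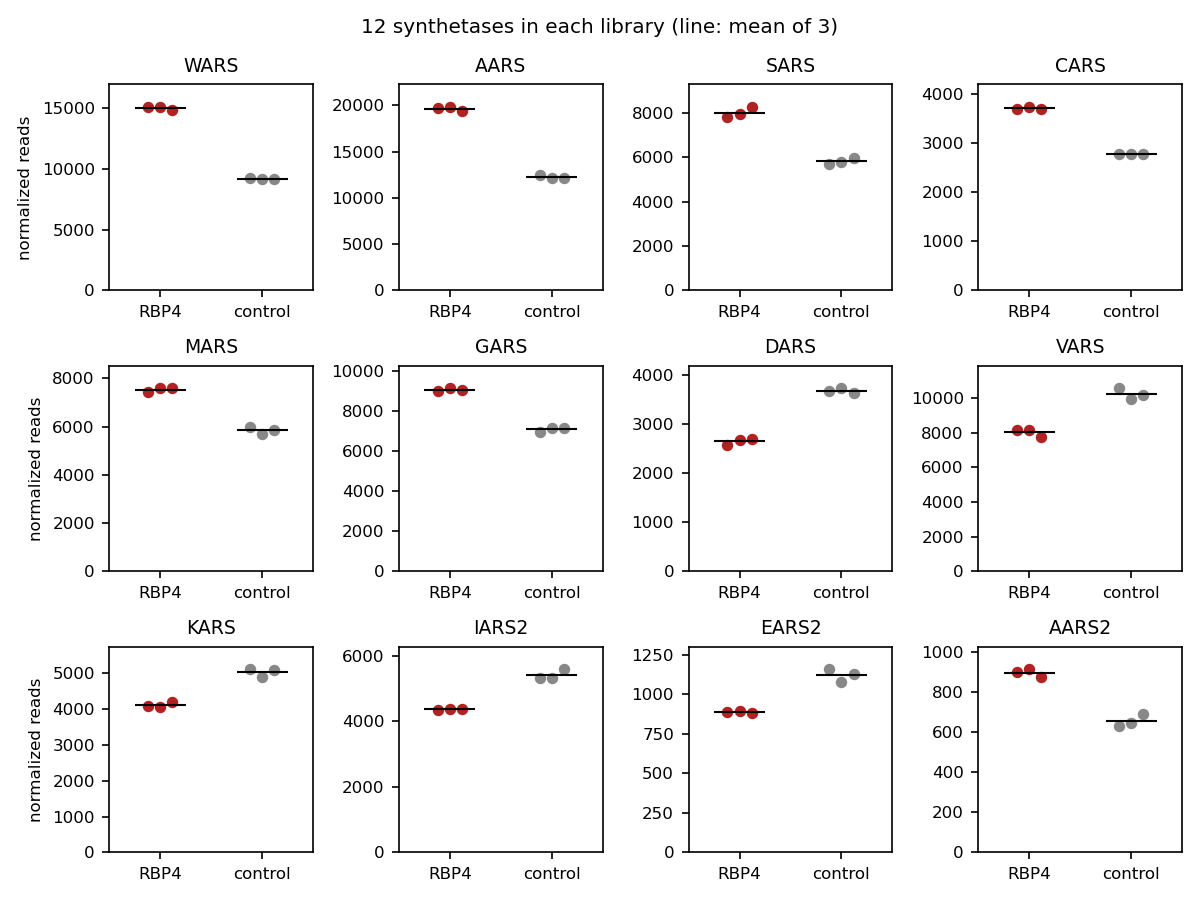
Normalized reads of 12 synthetases in each library, RBP4 left and control right, with the mean of 3 libraries as a line and every axis starting at 0. WARS, AARS, SARS, CARS, MARS, GARS and AARS2 lie higher, and DARS, VARS, KARS, IARS2 and EARS2 lower, in all 3 RBP4 libraries than in any control library.

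The 5 cytosolic genes that fell were DARS, VARS, KARS, RARS and FARSB. DARS (ENSG00000115866, chromosome 2, 135906677 to 135986100 on the minus strand), which charges aspartate, had 2564, 2674 and 2697 normalized reads in the RBP4 libraries, against 3669, 3726 and 3628 in the control libraries and fell 1.39-fold (log2 fold change -0.47, SE 0.033, adjusted p = 2.7e-20). VARS, the valine enzyme, which works in a complex with elongation factor 1, had 8147, 8167 and 7782 normalized reads in the RBP4 libraries, against 10563, 9960.2 and 10178 in the control libraries (1.27-fold lower, adjusted p = 6.9e-19). KARS, the lysine enzyme of both compartments, had 4083, 4044 and 4182 normalized reads in the RBP4 libraries, against 5104, 4884 and 5093 in the control libraries (1.23-fold lower, adjusted p = 3.4e-13). RARS, the arginine enzyme, averaged 1927 ± 18.9 normalized reads in the RBP4 and 2349 ± 58.6 in the control libraries (1.22-fold lower, adjusted p = 8.7e-10). FARSB averaged 1924 ± 34.3 normalized reads in the RBP4 and 2219 ± 68.5 in the control libraries (1.15-fold lower, adjusted p = 4.1e-06). It encodes the beta subunit of the phenylalanine enzyme, whose alpha subunit FARSA rose in the same fit. Neither group of libraries overlapped the other in any of these genes.

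QARS (glutamine) and LARS (leucine) did not pass. QARS averaged 3252 ± 53.6 normalized reads in the RBP4 and 3218 ± 33.1 in the control libraries (adjusted p = 0.731). LARS averaged 8132 ± 104 normalized reads in the RBP4 and 8141 ± 259 in the control libraries (adjusted p = 0.976). Scaled to equal totals, both passed upward (log2 fold change 0.083, adjusted p = 0.0269, and 0.067, adjusted p = 0.0271). HARS, the histidine enzyme, averaged 1243 ± 25.6 normalized reads in the RBP4 and 1333 ± 63.5 in the control libraries (adjusted p = 0.0600). Its groups did not overlap, and it passed without control library 3 (log2 fold change -0.12, adjusted p = 0.0347), the smallest adjusted p of its alternatives, the largest being 0.594.

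Members of the multisynthetase complex moved in both directions. Of its 8 synthetases, 3 rose (MARS, IARS and EPRS), 3 fell (DARS, KARS and RARS) and LARS and QARS missed the threshold, at a median log2 fold change of 0.0068. Among the 12 cytosolic genes whose enzymes are not held in the complex, 9 rose, 2 fell (VARS and FARSB) and HARS missed the threshold, at a median of 0.22. By structural class, 5 of 9 cytosolic class I genes and 6 of 10 class II genes rose, EPRS holding an enzyme of each. In the mitochondrial set, 0 of 9 class I genes rose and 6 fell, while of 7 class II genes 2 rose and 1 fell. These splits are counts of genes and carry no test of a difference between the subsets. Of all genes tested, 24.5% rose and 26.1% fell. Protein-coding genes within the range of the cytosolic synthetases rose in 14.7% and fell in 60.0% of cases. Those within the range of the mitochondrial synthetases rose in 25.5% and fell in 32.6%.

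ATF4 itself averaged 7562 ± 104 normalized reads in the RBP4 and 5344 ± 73.6 in the control libraries (1.42-fold, adjusted p = 1.1e-25). The promoters of the synthetases were searched for the letters of the C/EBP-ATF element, TGATGNAA, on both strands (TTNCATCA on the other). Promoter sequences, 250 bases before to 50 after each start, came from RefSeq (GRCh38.p14), and 30 of the 36 synthetases had one. The others were AARS2, YARS, VARS2, LARS, VARS and DARS. The letters were present for 8 of the 30 genes (26.7%), against 4.46% of all 27305 genes with such a promoter. They were found in 7 of 11 raised cytosolic genes, in 0 of 3 lowered ones (KARS, RARS and FARSB) and in 0 of 2 that did not pass (QARS and HARS). Among the mitochondrial genes they were found in 1 of 7 lowered genes (YARS2), in 0 of 1 raised (PARS2) and in 0 of 6 that did not pass. The narrower form TTGCATCA, or TGATGCAA on the other strand, which is contained in TGATGNAA, was present in 6 promoters (AARS, CARS, MARS, NARS, IARS and TARS), all of raised cytosolic genes, and in 1.08% of all genes. The stretches around the matches, which most of the searched promoters of raised cytosolic genes held, read as follows, 5′ to 3′ in the direction of the gene and with the match in capitals.
AARS: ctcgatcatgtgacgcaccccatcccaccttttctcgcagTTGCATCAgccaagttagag
CARS: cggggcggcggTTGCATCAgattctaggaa
MARS: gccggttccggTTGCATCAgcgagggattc
NARS: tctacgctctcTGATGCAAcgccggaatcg
IARS: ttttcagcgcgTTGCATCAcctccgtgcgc
TARS: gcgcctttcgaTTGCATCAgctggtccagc
GARS: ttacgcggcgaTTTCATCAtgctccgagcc
YARS2: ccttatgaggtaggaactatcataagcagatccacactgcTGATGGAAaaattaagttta
On GRCh38 they lie at chr16:70289674-70289733 (minus strand) for AARS, chr11:3057407-3057436 (minus strand) for CARS, chr12:57488053-57488082 (plus strand) for MARS, chr18:57621804-57621833 (minus strand) for NARS, chr9:92293692-92293721 (minus strand) for IARS, chr5:33440956-33440985 (plus strand) for TARS, chr7:30594834-30594863 (plus strand) for GARS and chr12:32756075-32756134 (minus strand) for YARS2. The match began 2, 4 and 13 bases before the annotated start in CARS, MARS and IARS, and 2 and 14 bases after it in TARS and NARS. In AARS it lay 187 bases before the start, in GARS 33 bases before the downstream one of its 2 annotated starts, and in YARS2 197 bases before. WARS and SARS, which rose 1.63-fold and 1.38-fold, had no match in this window, nor had FARSA and EPRS. The E-box CACGTG was present in 4 synthetase promoters (IARS, CARS2, MARS2 and EARS2; 13.3%, against 8.77% of all genes) and the palindromic NRF1 element in 1 (MARS2; 3.33%, against 1.52% of all genes). A match is a description of the letters, and binding was not measured.

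Among the mitochondrial synthetases, AARS2 (alanine) and PARS2 (proline) were the members that rose. AARS2 had 897, 911 and 873 normalized reads in the RBP4 libraries, against 629, 644 and 687 in the control libraries (log2 fold change 0.45, SE 0.055, adjusted p = 1.6e-10). PARS2 had 457, 421 and 427 normalized reads in the RBP4 libraries, against 312, 294 and 358 in the control libraries (1.36-fold, adjusted p = 2.1e-06). The lowest RBP4 library of each exceeded its highest control library. IARS2 (ENSG00000067704, chromosome 1, 220094102 to 220148041 on the plus strand), the isoleucine enzyme and by far the most abundant of the set, had 4349.8, 4376 and 4376 normalized reads in the RBP4 libraries, against 5326, 5329.8 and 5581 in the control libraries (log2 fold change -0.31, SE 0.029, adjusted p = 1.9e-14). EARS2, which charges glutamate and also loads the mitochondrial glutamine transfer RNA with glutamate, had 887, 895 and 884 normalized reads in the RBP4 libraries, against 1157, 1075 and 1128 in the control libraries (1.26-fold lower, adjusted p = 3.8e-08). LARS2, the leucine enzyme, had 857, 924 and 867 normalized reads in the RBP4 libraries, against 1016, 1118 and 1083 in the control libraries (1.21-fold lower, adjusted p = 3.7e-06). The values of IARS2, EARS2 and LARS2 did not overlap between the groups.

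The other lowered mitochondrial genes changed less: NARS2 (asparagine) fell 1.16-fold (adjusted p = 0.00117), MARS2 (methionine) 1.14-fold (adjusted p = 0.00431), YARS2 (tyrosine) 1.13-fold (adjusted p = 0.00880) and RARS2 (arginine) 1.12-fold (adjusted p = 0.00613). With equal totals the last 3 lost the call (adjusted p = 0.0703, 0.112 and 0.126 in that order). Of the 7 that did not pass, TARS2 had 1219, 1169 and 1191 normalized reads in the RBP4 libraries, against 1238, 1264 and 1316 in the control libraries (adjusted p = 0.0817) and its groups did not overlap. FARS2 had 297, 323 and 271 normalized reads in the RBP4 libraries, against 318, 343 and 341 in the control libraries (adjusted p = 0.0811), and it passed without RBP4 library 2 (log2 fold change -0.23, adjusted p = 0.0358), while its largest adjusted p under any alternative was 0.353. SARS2, the least abundant of all, had 78.3, 73.7 and 56.3 normalized reads in the RBP4 libraries, against 86.9, 86.5 and 82.5 in the control libraries, and although the groups did not overlap, no difference was detectable at this depth (SE 0.164, adjusted p = 0.113). HARS2, WARS2, CARS2 and VARS2 had log2 fold changes between -0.084 and 0.021 with adjusted p of 0.379 or more, and their groups overlapped.

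Per length, the cytosolic transcripts were the more abundant. Levels per kilobase of annotated exons had a median over genes of 1196 normalized reads in the RBP4 and 1207 in the control libraries for the cytosolic set. For the mitochondrial set the median was 181 in the RBP4 and 169 in the control libraries. AARS led in both groups, with 4365 ± 42.1 per kilobase in the RBP4 and 2731 ± 44.7 in the control libraries (mean ± SD, n = 3). WARS held rank 2 in the RBP4 libraries (2361 ± 16.2) and rank 6 in the control libraries (1449 ± 10.5). VARS, at 1321 ± 35.6 in the RBP4 and 1683 ± 50.2 in the control libraries, held rank 10 in the RBP4 and rank 4 in the control libraries. EPRS and GARS, next to WARS in the order of the RBP4 libraries, stood at 2188 ± 15.4 and 2182 ± 18.7 there and did not differ beyond their spread, as the means lay closer than the larger SD. By the same measure the neighbours TARS and NARS, FARSA and VARS, KARS and LARS, FARSB and RARS, NARS2 and AARS2, and HARS and EARS2 did not differ in the RBP4 libraries either. IARS2 stood apart from the other mitochondrial enzymes, at 1049 ± 3.61 per kilobase in the RBP4 and 1299 ± 35.1 in the control libraries, while the next, RARS2, stood at 347 ± 9.25 in the RBP4 and 388 ± 14.1 in the control libraries. CARS and HARS had the lowest cytosolic levels, at 369.5 ± 1.91 and 158 ± 3.26 in the RBP4 and 277 ± 0.961 and 169.7 ± 8.09 in the control libraries. The length counts every annotated exon of a gene, so a gene with many rare exons, such as CARS with 10037 bases, reads low on this scale. The level per kilobase in the control libraries and the log2 fold change had a Spearman correlation of 0.32 across the 20 cytosolic genes and of -0.34 across the 16 mitochondrial genes, against 0.25 with the classes pooled. These are descriptions, since all genes share the same libraries.

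**Figure D3:**
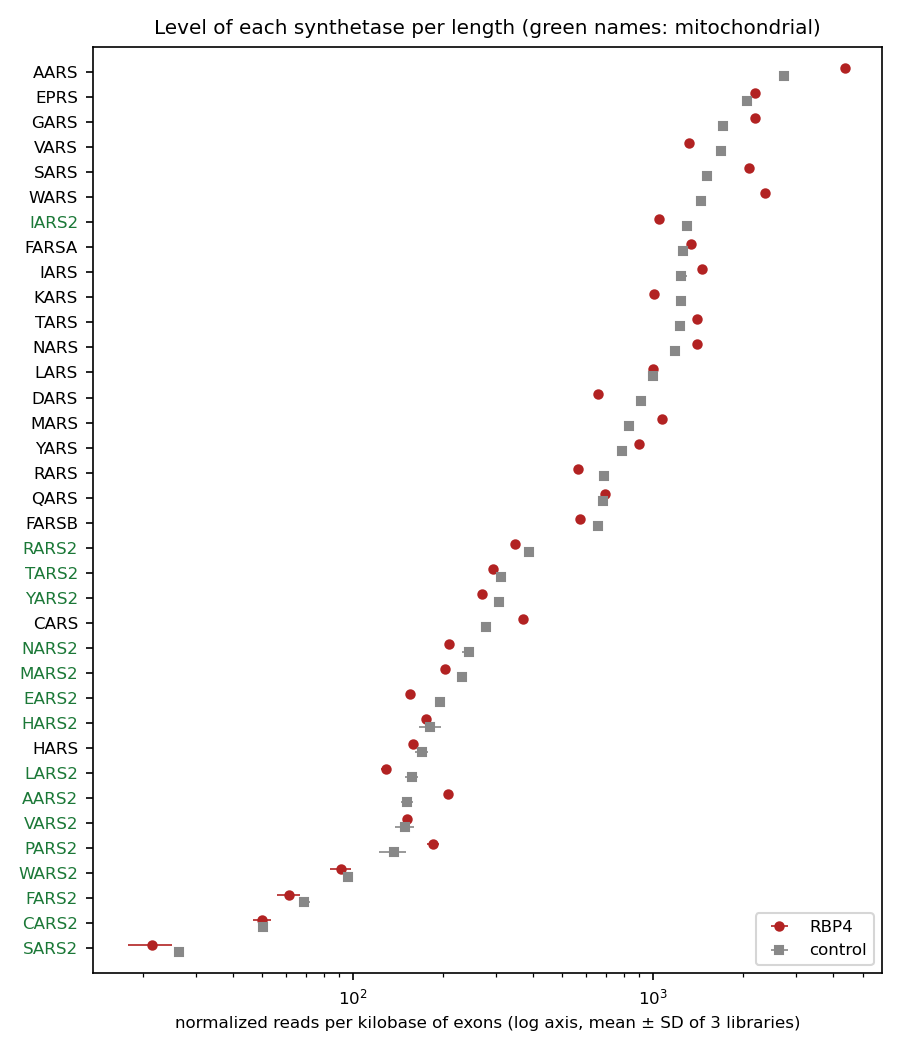
Level of each synthetase per kilobase of annotated exons on a log axis, as the mean ± SD of 3 libraries, with RBP4 as red circles above control as grey squares. Mitochondrial names are green, and apart from IARS2 none lies above RARS2, at 347 in the RBP4 and 388 in the control libraries. Of the cytosolic genes, HARS lies below RARS2 in both groups and CARS in the control libraries.

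Summed over the 20 cytosolic genes, normalized reads were 141046, 141395 and 141693 in the RBP4 libraries, against 120611, 120352 and 122249 in the control libraries. The sum was higher by 16.8% in the mean, and by 7.19% with AARS and WARS left out. AARS and WARS held between 24.2% and 24.7% of the cytosolic sum in the RBP4 libraries and between 17.5% and 18.1% in the control libraries. The 16 mitochondrial genes summed to 14560.3, 14657 and 14498 in the RBP4 libraries, against 16156, 16054 and 16442 in the control libraries. This sum changed by -10.1% in the mean, and by -5.56% with IARS2 left out. The cytosolic sum was 9.69, 9.65 and 9.77 times the mitochondrial one in the RBP4 libraries, against 7.47, 7.50 and 7.44 times in the control libraries. As a share of all reads, the cytosolic genes took 0.912% in the RBP4 and 0.745% in the control libraries, and the mitochondrial genes took 0.0940% in the RBP4 and 0.0998% in the control libraries (means of 3). No library of one group reached into the range of the other in any of these sums, and no test was made on them.

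**Figure D4:**
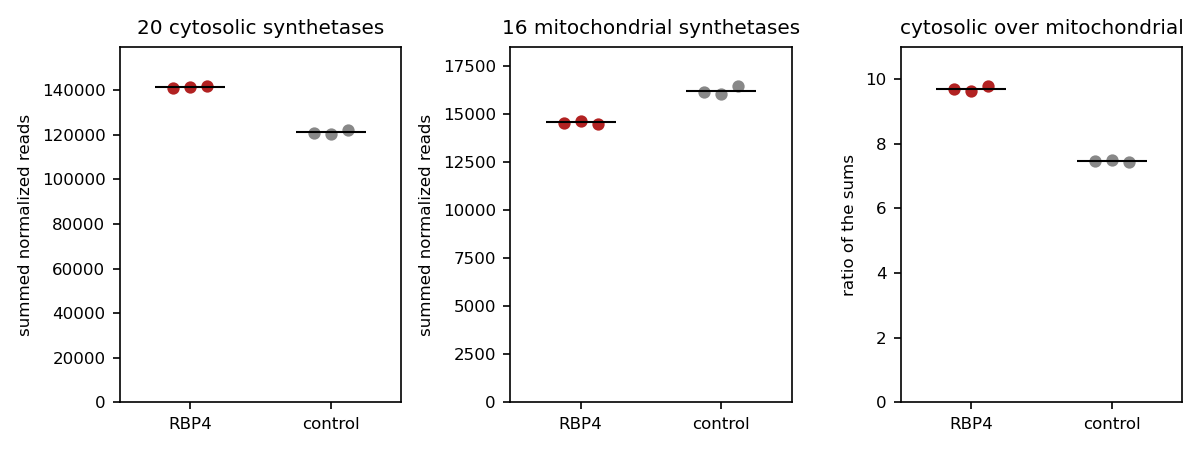
Summed normalized reads of the 20 cytosolic and the 16 mitochondrial synthetases and the ratio of the sums, in each library (points) with the mean of 3 (line), RBP4 left and control right, all axes from 0. The ratio lies between 9.65 and 9.77 in the RBP4 and between 7.44 and 7.50 in the control libraries.

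The classes were also compared within each amino acid, as the log2 ratio of the cytosolic to the mitochondrial transcript in the same library (both as value + 1), on which the scaling of the library has little bearing. In 17 such pairs (EPRS was set against EARS2 and PARS2, and FARS2 against FARSA and FARSB), the ratio was higher in all 3 RBP4 libraries than in any control library in 12, lower in 3 and overlapping in 2. Single genes were without overlap often as well, 27.3% of all genes tested lying higher and 28.9% lower in the RBP4 libraries. No share was taken for ratios of other pairs of genes, so these counts are a description. The largest shifts were those of tryptophan (0.79 on the log2 scale, WARS over WARS2), serine (0.77), methionine (0.56) and isoleucine (0.54). The serine ratio, at 6.84 ± 0.288 in the RBP4 and 6.08 ± 0.0756 in the control libraries, rests on SARS2 with its 59 to 86 reads per library. SARS2 also shares exonic bases with MRPS12, as MARS does with DDIT3, and the part of these overlaps in the serine and methionine ratios was not tested. The WARS to WARS2 log2 ratio averaged 5.42 ± 0.109 in the RBP4 and 4.63 ± 0.0416 in the control libraries (SD, n = 3 each). For isoleucine it averaged 1.31 ± 0.0107 in the RBP4 and 0.765 ± 0.0256 in the control libraries, with both genes past the threshold in opposite directions. For alanine both genes rose, AARS the more, and the ratio shifted by 0.22. The valine ratio shifted the other way (-0.37), as did EPRS over PARS2 (-0.35) and arginine (-0.12). The histidine pair, whose genes lie head to head on chromosome 5 and share 437 exonic bases on opposite strands, overlapped (-0.057), as did FARSB over FARS2 (-0.034). An exact permutation test with 3 libraries against 3 cannot go below p = 0.10, two-sided, which the 15 pairs without overlap reached (adjusted over the 17 pairs, p = 0.113), so no pair could pass.

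**Figure D5:**
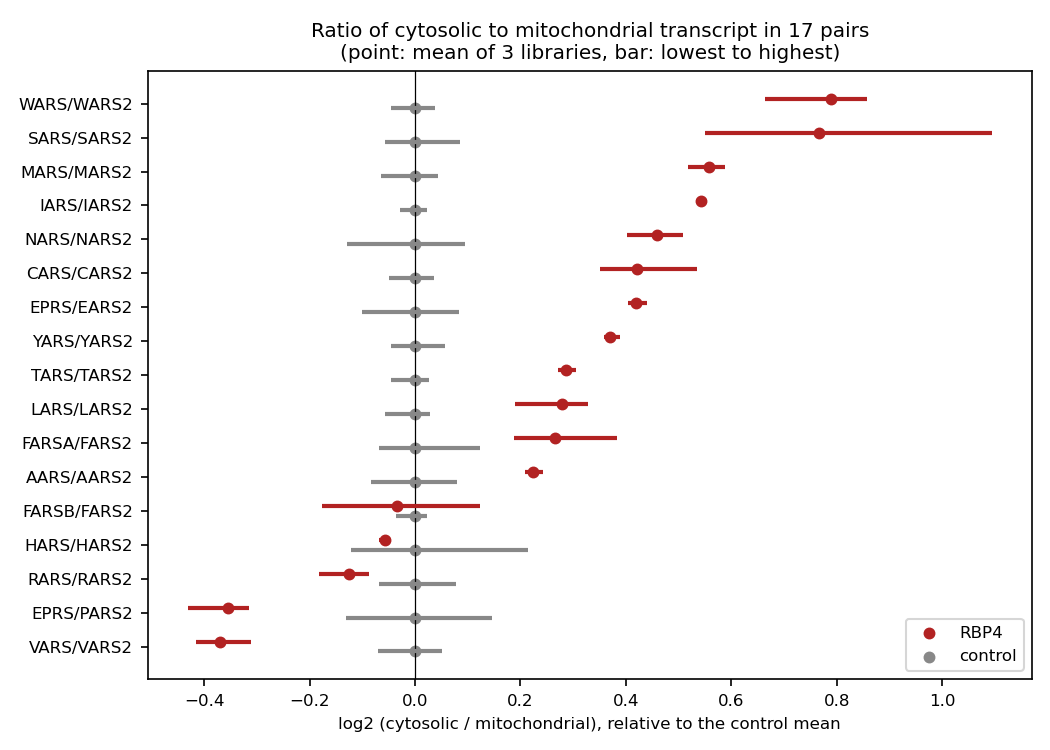
Log2 ratio of cytosolic to mitochondrial transcript for 17 pairs, relative to the mean of the control libraries, with the mean of 3 libraries as a point and the lowest to highest library as a bar, RBP4 (red) above control (grey). In 12 pairs the red bar lies wholly right of the grey one and in 3 (RARS, EPRS over PARS2, and VARS) wholly left.

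Among 28 genes that work beside the synthetases, calls were mostly downward: 27 were analysed, 26 were tested, 1 rose, 13 fell and 12 missed the threshold, around a median log2 fold change of -0.12, where 26.1% of all genes tested fell. Of protein-coding genes within the range of the mitochondrial synthetases 32.6% fell, and within that of the cytosolic ones 60.0%. No share was taken for the range of the partner genes. With equal totals, where 61.7% of the calls among all genes were upward, 2 partner genes rose and 9 fell. On the recovered reads 12 fell with edgeR and 11 with DESeq2. The gene that rose was XPOT, the export receptor that carries transfer RNA out of the nucleus, which averaged 8131 ± 119.6 normalized reads in the RBP4 and 7352 ± 237 in the control libraries (1.11-fold, adjusted p = 4.3e-06). Of the scaffolds of the multisynthetase complex, AIMP1 fell 1.18-fold (adjusted p = 1.3e-05), while AIMP2 and EEF1E1 averaged 300.1 and 661 normalized reads in the RBP4 and 294 and 655 in the control libraries and did not pass (adjusted p = 0.812 and 0.887). Among the elongation factors, EEF1A1, which takes charged transfer RNA to the ribosome, fell 1.06-fold (adjusted p = 5.4e-08) and its exchange factor EEF1B2 1.11-fold (adjusted p = 1.4e-05). The fall of EEF1A1 depends on the scaling. In CPM it averaged 20037 ± 322 in the RBP4 and 20305 ± 275 in the control libraries, means closer than the larger SD. EEF1D, another subunit of the exchange factor, had 1360.0, 1362 and 1415 normalized reads in the RBP4 libraries, against 1299.9, 1338 and 1272 in the control libraries, without overlap, and missed the threshold (adjusted p = 0.117). Their mitochondrial counterparts TUFM and TSFM fell 1.16-fold (adjusted p = 1.7e-09) and 1.22-fold (adjusted p = 0.00101). QRSL1 and GATB, subunits of the enzyme that converts the glutamate loaded by EARS2 into glutamine, fell 1.15-fold (adjusted p = 0.0254) and 1.15-fold (adjusted p = 0.0382), although the groups overlapped for GATB. GATC, a further subunit of that enzyme, averaged 530 normalized reads in the RBP4 and 541 in the control libraries and did not pass (adjusted p = 0.716). Of the genes that make or finish transfer RNA, TRNT1, which adds the CCA end, averaged 509 ± 45.2 normalized reads in the RBP4 and 622 ± 20.5 in the control libraries (adjusted p = 1.1e-04), and ELAC2, which trims the 3′ tail before it, averaged 1614 ± 70.9 normalized reads in the RBP4 and 1984 ± 36.9 in the control libraries (adjusted p = 2.3e-09). SEPSECS, which completes selenocysteine on the transfer RNA that SARS loads with serine, fell 1.18-fold (adjusted p = 2.9e-04). The other selenocysteine genes of the list did not pass. PSTK averaged 90.5 normalized reads in the RBP4 and 75.4 in the control libraries (adjusted p = 0.193), and EEFSEC 230 and 233 (adjusted p = 0.878). AARSD1, an editing protein that removes wrongly attached serine from alanine transfer RNA, had 59.9, 57.6 and 75.4 normalized reads in the RBP4 libraries, against 100.4, 91.6 and 84.6 in the control libraries (log2 fold change -0.52, SE 0.164, adjusted p = 0.00609). GCN2 (EIF2AK4), the sensor of uncharged transfer RNA, averaged 1241 ± 30.4 normalized reads in the RBP4 and 1375 ± 61.0 in the control libraries (1.11-fold lower, adjusted p = 0.00450), and its partner GCN1 averaged 8525 ± 254 normalized reads in the RBP4 and 10757 ± 158 in the control libraries (1.26-fold lower, adjusted p = 1.2e-18). TARSL2, a further threonine enzyme in this list, averaged 274 normalized reads in the RBP4 and 263 in the control libraries (adjusted p = 0.586).

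In the authors' deposited table, 11 cytosolic synthetases were raised and 5 lowered at an adjusted p under 0.05, and 2 mitochondrial ones raised and 6 lowered, beside 9.48% raised and 11.1% lowered of all genes listed there. The synthetases called here and not there were FARSA and YARS2, at 0.0594 and 0.0635 in the authors' deposited table. Of the partner genes, the authors' deposited table had 1 raised and 10 lowered, without QRSL1, GATB and AARSD1, whose adjusted p was 0.162, 0.213 and 0.0630 there. Read numbers are also uncertain where a synthetase shares exonic bases with a more abundant neighbour on either strand: SARS2 shares 349 with MRPS12, which averaged 597 normalized reads in the RBP4 and 684 in the control libraries, and EARS2 shares 370 with UBFD1, which averaged 1521 in the RBP4 and 1612 in the control libraries. HARS2 shares 152 on its own strand with ZMAT2, which averaged 786 normalized reads in the RBP4 and 923 in the control libraries, besides the 437 shared with HARS. The part of these neighbours in the values was not tested.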

How the data were processed

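Poly-T selected RNA went into libraries from a NEBNext Ultra kit, per the labels' protocols, which keeps no strand. No source used here names the aligner or the counter. As for the values, the authors deposited a table of normalized signal (called normalized reads here) and, per the file headers, their log2 fold changes and p-values. Every signal was a whole multiple of its library's step (100% of values within 0.01 reads), and the reads so recovered gave depth and the count tests. Coordinates matched GENCODE 29 (GRCh38) for all 36 synthetases. No per-sample column was left unused (0). A count of 0 allows up to 3 reads, 0.183 to 0.197 CPM, counting error only. Within each group every pair of libraries differed by more than sampling noise (chi-square per gene 1.82 to 2.24).

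The main test was limma-trend (R 4.3.3, limma 3.58.1) on log2(value + 1) with robust variances, for genes reaching 10 in 3 or more libraries, two-sided, Benjamini-Hochberg adjusted over all genes tested, threshold 0.05. Folds are ratios of group means, log2 fold changes come from the fit, and errors are SD (n = 3) unless SE is named. Alternatives were pseudocounts of 0.5 and 5, no filter, 5 CPM as filter, equal library totals, edgeR 4.0.16 and DESeq2 1.42.0 on recovered reads, a replicate block, and leaving out each library. All synthetases are named, with scaffold genes and partners past 0.5 in absolute log2 fold change; other partners were picked after their values were seen. The members and lists were chosen with earlier results of these data known.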

Additional observations from a re-analysis of the deposited data

How the results depend on the processing

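Of the 36 synthetases, 25 kept their direction and their side of the threshold under all 14 alternatives, WARS between 0.70 and 0.77 and DARS between -0.49 and -0.41 among them; 4 lost a call (FARSA, MARS2, RARS2 and YARS2), 3 gained one in the same direction (HARS, QARS and FARS2) and 4 near 0 (LARS, CARS2, HARS2 and VARS2) changed sign, LARS also passing with equal totals. The counts that moved by over 1.5 times were those with equal totals, 4 mitochondrial synthetases lowered in place of 7 and 2 partner genes raised in place of 1; the raised share of all calls was then 61.7% in place of 48.4%, as that scaling moves the median of all genes by 0.068. Log2 fold changes with the other sign were, with equal totals, 0.0672 (LARS), 0.0612 (CARS2) and 0.0263 (HARS2); with edgeR 0.0116 (LARS) and 0.00886 (CARS2); with DESeq2 0.00554 and 0.00253. Leaving out 1 library gave -0.025 to 0.0209 for LARS, -0.0395 to 0.0521 for CARS2, -0.111 to 0.00266 for HARS2 and -0.0239 to 0.0791 for VARS2, the cause of which was not tested. Leaving out each library gave 11 to 12 raised and 5 to 6 lowered cytosolic genes, 7 to 8 lowered mitochondrial genes and 7044 to 7521 calls in all. Same-numbered libraries did not deviate together over the genes tested (correlations of -0.017 to 0.004). These correlations cannot exclude a pairing that touches few genes, and the labels do not say whether the numbers pair samples. With the replicate block 7829 genes were called in place of 7934. Among them were 12 raised and 5 lowered cytosolic and 2 raised and 7 lowered mitochondrial synthetases. Depth limits SARS2 most, with 59 to 86 reads per library.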
